A study of Homo sapiens with 12 samples.

Results

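RNA sequencing of HEK293T cells, an embryonic kidney line that carries the SV40 large T antigen, was examined for its response to the replacement of methionine by homocysteine. The libraries are the 6 of this parental line among the 12 of the series, chosen by their labels, with 3 from cells kept for 12 h in +Met medium and 3 from cells kept for 12 h in −Met+Hcy medium. The other libraries come from R1, a clone of the same line, and entered only 1 alternative model. Both media were prepared by the study with dialyzed serum, cysteine and vitamin B12, so that the groups share an external source of cysteine and of the cofactor of methionine synthase. The question was which functions rise and which fall in this line, which the study treats as methionine-dependent.

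Methionine is both an amino acid of proteins and the precursor of S-adenosylmethionine (SAM), the methyl donor for DNA, RNA, proteins and lipids. Giving up its methyl group turns SAM into S-adenosylhomocysteine, which is split into adenosine and homocysteine, and methionine synthase remakes methionine from homocysteine with a methyl group from folate. When an amino acid runs short, the kinase GCN2 phosphorylates the translation factor eIF2, general translation slows and the transcription factor ATF4 is made. ATF4 switches on genes of amino acid synthesis, uptake and stress defence. Growing cells spend much of their mRNA on ribosomal proteins, chaperones and the proteasome, the machinery that makes, folds and degrades proteins.

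The deposited values are whole-number sums of estimated counts per gene, from 14260534 to 17019716 per library. Levels are given as CPM, counts relative to the library total after scaling by the TMM method, which sets libraries against each other by their middle genes. They are not per length, so levels of different genes are not compared. Of 23500 genes listed, 16275 had a summed count of at least 10 over the 6 libraries and were tested. Over the 500 most variable genes, principal component 1 (62.4% of the variance) separated the media, with +Met libraries at -25.7 to -24.6 and −Met+Hcy libraries at 22.1 to 26.8. Pairs of libraries from one medium differed beyond sampling error, at chi-square values of 12.6 to 47.3 for each gene on average, where sampling alone gives 1. Neither the labels nor the study's methods say whether they are separate cultures, so that p-values measure the spread between these libraries, which may be technical. A library's deviation from the gene means correlated with the GC content of the transcript at a Spearman's rho of -0.23 to 0.31 across 10914 genes, a description for which no p-value is given.

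Replacing methionine by homocysteine moved 11.7% of the genes tested past both thresholds used, which were a 2-fold difference (log2 fold change beyond 1 in size) together with edgeR's quasi-likelihood p-value, adjusted by Benjamini-Hochberg, below 0.05. In −Met+Hcy medium 1281 genes were higher (7.87% of those tested) and 618 were lower (3.8%), under 1230 and 582 distinct symbols. The 3 libraries of one medium lay outside the range of the other in 1259 of the higher and 601 of the lower genes, against 47.1% of all genes tested. At the adjusted p-value alone, 3035 genes were higher and 2527 lower. The median log2 fold change was 1.57 among higher and -1.29 among lower genes, and 445 higher and 112 lower genes changed by more than 4-fold.

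The scaling of the libraries bears on each direction given here. The TMM factors were 0.882 to 0.940 in the +Met libraries and 1.06 to 1.16 in the −Met+Hcy libraries. With libraries scaled by their total count instead, an alternative chosen after these factors were seen, log2 fold changes moved up by a median of 0.29, and 2270 genes were higher and 264 lower. The share of calls that were higher was then 89.6%, against 67.5% with TMM. Changes are therefore relative to the middle gene of the transcriptome, and in bulk RNA fewer cells of a kind, less RNA per cell and a change in its composition cannot be told apart.

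The direction of the response depended on how abundant a gene was. Among the 2127 genes with a mean log2 CPM of 0 to 2, 372 were higher (17.5%) and 145 lower (6.82%). Among the 4926 genes at 4 to 6, 215 were higher (4.36%) and 121 lower (2.46%). Among the 577 genes at 8 and over, 9 were higher (1.56%) and 64 lower (11.1%). The median log2 fold change went from 0.51 in genes under 0 through 0.23, 0.10, 0.03 and -0.15 to -0.44 in genes at 8 and over. With total count scaling these medians were 0.80, 0.53, 0.39, 0.33, 0.15 and -0.15, so that genes at 6 to 8 changed sign and the most abundant genes stayed lower.

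The spread between replicates also depended on the level. The median SD of log2 CPM between libraries of +Met was 0.56 in genes under 0 and 0.16 in genes at 8 and over. A gene called higher under 0 had a median log2 fold change of 3.25, and a gene called lower there -3.04. At 4 to 6 these medians were 1.22 and -1.15. In counts, genes at 8 and over took 49.5, 47.3 and 49.5% of the +Met libraries and 38.6, 40.3 and 42.5% of the −Met+Hcy libraries. Genes at 4 to 6 took 15.2, 16.3 and 15.3% in +Met and 20.7, 19.7 and 18.7% in −Met+Hcy.

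**Figure D1:**
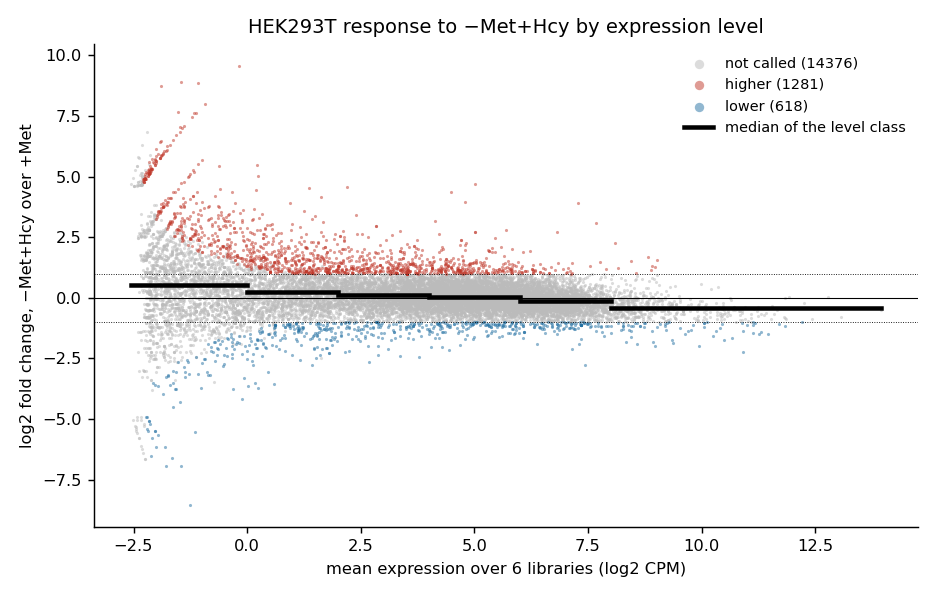
Log2 fold change of −Met+Hcy over +Met (vertical axis) against mean log2 CPM over the 6 libraries (horizontal axis) for the 16275 genes tested, with called genes coloured, dotted lines at a log2 fold change of 1 and -1, and black bars at the median of each level class. The median lies at 0.51 in the lowest class and at -0.44 in the highest.

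Functions were followed in 48 lists of genes written down with earlier results of these data known, so that their counts describe the response and do not test it. Over all genes the median log2 fold change was 0.03, with 7.87% called higher and 3.8% lower, the shares against which the counts of each list stand. No list was set against genes of its own level. Genes at a mean log2 CPM of 8 and over had a median of -0.44, and 11.1% of them were called lower. The lists with the highest medians were linker histones, core histones and the ATF4 network, and those with the lowest were mitochondrially encoded genes, heat shock chaperones, proteasome subunits, the CCT chaperonin and ribosomal proteins. Of the 48 lists, 38 took a share of the counts that did not overlap between the media, where 47.1% of single genes did not overlap by TMM-scaled CPM. With 3 libraries against 3, the exact two-sided permutation test of a share cannot go below p = 0.10, which all 38 reached (Benjamini-Hochberg adjusted p = 0.126 over the 48 lists), so that no share passes 0.05 in this design. Shares are of all counts without TMM scaling, so that a share can rise while the median of its list falls. Transsulfuration and glutathione had a share ratio of 1.22 with a median of -0.25, and the methionine cycle 1.21 with -0.22.

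**Figure D2:**
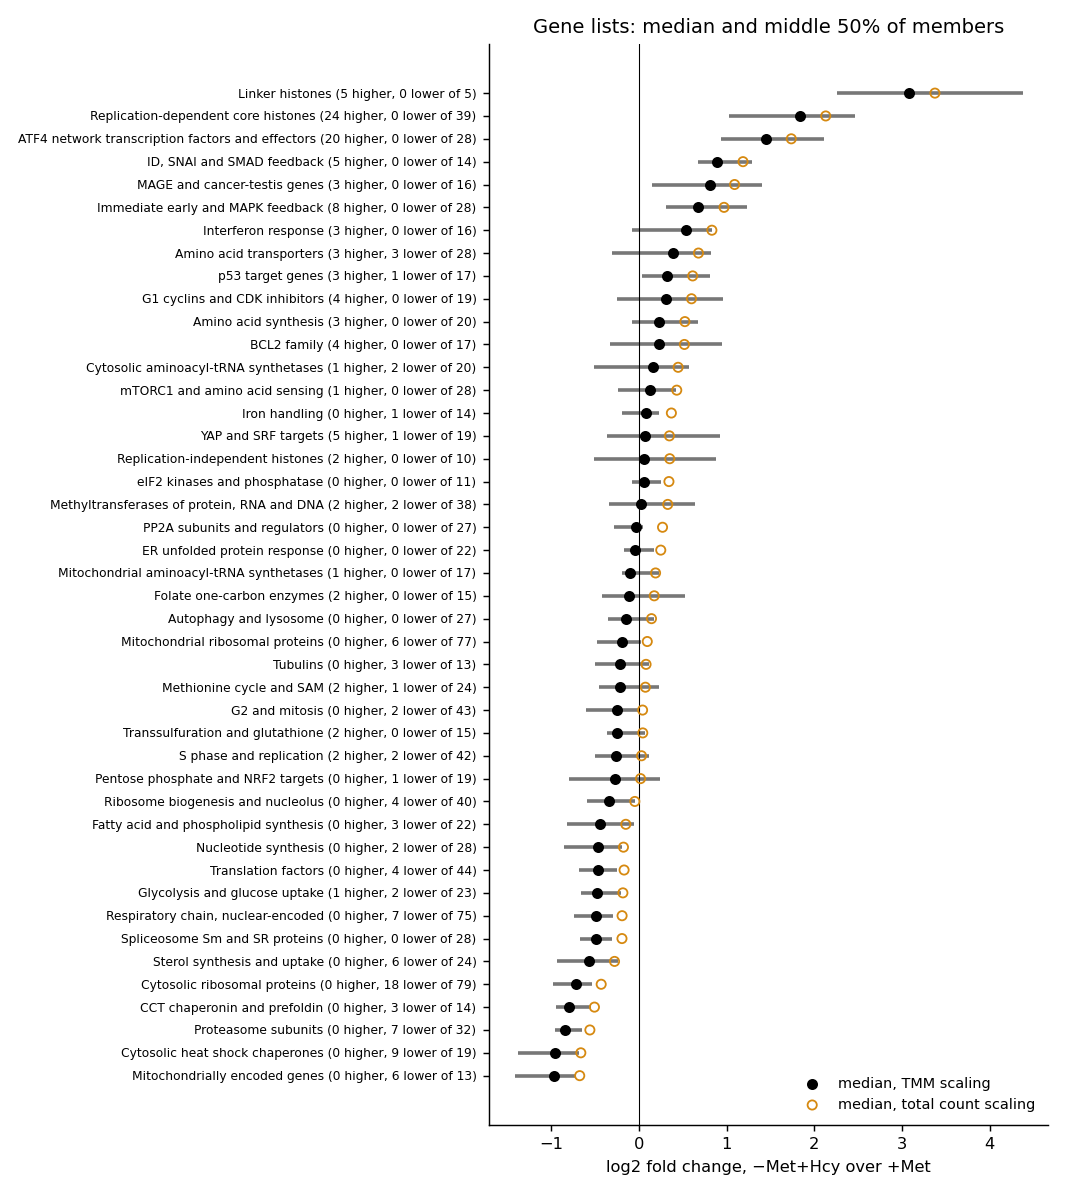
Median log2 fold change (filled points) and middle 50% of members (bars) of 44 gene lists, with the median under total count scaling as open circles and the number of members called beside each name. Linker histones stand at 3.08 and mitochondrially encoded genes at -0.97, and total count scaling moves each median to the right.

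Most members of the ATF4 network, the transcription factors and effectors that answer amino acid shortage, rose. Of its 28 members tested, 20 were higher and 0 lower, with a median log2 fold change of 1.45, and 20 or 21 were higher with any one library left out. FGF21 encodes a secreted hormone. No +Met library had a count of it, and the −Met+Hcy libraries had 82, 106 and 122, at least 28.5-fold higher than a floor of 3 counts per library. INHBE, a subunit of the activin family, was at 0.213, 0.0729 and 0.0689 CPM in +Met and 5.64, 5.98 and 5.1 CPM in −Met+Hcy (log2 fold change 5.47, standard error 0.40, edgeR adjusted p = 8.13e-06). CHAC1, an enzyme that degrades glutathione, was at 7.88, 5.83 and 5.44 CPM in +Met and 147, 158 and 187 CPM in −Met+Hcy (log2 fold change 4.68, standard error 0.19, edgeR adjusted p = 8.56e-08). NUPR1, a stress-induced chromatin protein, was at 0.497, 0.364 and 1.24 CPM in +Met and 11.2, 14.7 and 11.9 CPM in −Met+Hcy. All of these rose, and their libraries did not overlap between the media. More moderate rises were those of CEBPG, a partner of ATF4 (log2 fold change 2.0), STC2, a secreted glycoprotein (log2 fold change 1.95), DDIT3, or CHOP (log2 fold change 1.39), and TRIB3, which restrains AKT (log2 fold change 1.13).

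ATF4 and C/EBP factors bind a composite DNA element whose core reads TGATGCAA. The 8 letters were searched on both strands in the 250 bases before the RefSeq start, which could be matched for 11869 of the 15217 symbols tested. Of all these promoters 0.489% held a match, as did 11 of the 920 of higher genes (1.2%) and 2 of the 410 of lower genes (0.488%). CHAC1 and FGF21 were among the 11, and the stretches around their matches are shown because these genes were among the largest rises, with the match in capitals, read on the coding strand, where it appears as the reverse complement (RefSeq, GRCh38.p14).
CHAC1 chr15:40953251-40953280, plus strand: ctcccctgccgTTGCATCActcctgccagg
FGF21 chr19:48755425-48755522, plus strand: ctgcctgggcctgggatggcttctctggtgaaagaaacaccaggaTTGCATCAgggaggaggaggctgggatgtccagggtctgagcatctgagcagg
The match lies 209 to 202 bases before the RefSeq start of CHAC1, in the first exon of a longer GENCODE transcript, and 54 to 47 bases before the start of FGF21, outside annotated exons. A match of letters is no binding site.

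Regulators of growth and translation in the same network rose too. DDIT4, an inhibitor of mTORC1 signalling, was at 43.1, 35.9 and 42.3 CPM in +Met and 559.9, 625 and 635 CPM in −Met+Hcy (log2 fold change 3.91, standard error 0.15, edgeR adjusted p = 8.56e-08), and SESN2, a leucine sensor that also restrains mTORC1, was at 10.7, 14 and 13 CPM in +Met and 93, 82.3 and 75.3 CPM in −Met+Hcy (log2 fold change 2.73, standard error 0.15, edgeR adjusted p = 1.33e-06). SESN2 was the 1 gene called among 28 of mTORC1 and amino acid sensing. ATF3, a transcription factor induced by ATF4, was at 18.8, 17.3 and 20.5 CPM in +Met and 82.5, 108 and 119.5 CPM in −Met+Hcy. The mRNA of ATF4 itself was at 1132, 957 and 1049 CPM in +Met and 1159, 1386 and 1438 CPM in −Met+Hcy and was not called (log2 fold change 0.34, edgeR adjusted p = 0.0953). Among the 11 eIF2 kinases and phosphatase subunits edgeR and DESeq2 called 0 (3 higher and 1 lower at an unadjusted p under 0.05), although 2 were called higher with total count scaling and 1 without +Met replicate 1. Among 22 genes of the endoplasmic reticulum's unfolded protein response both tools called 0 as well (4 higher and 2 lower at an unadjusted p under 0.05), with a median of -0.05 (0.25 with total count scaling). In that list HSPA5, the main chaperone of the endoplasmic reticulum, was at 585, 588 and 545 CPM in +Met and 799, 855 and 784 CPM in −Met+Hcy (log2 fold change 0.51).

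**Figure D3:**
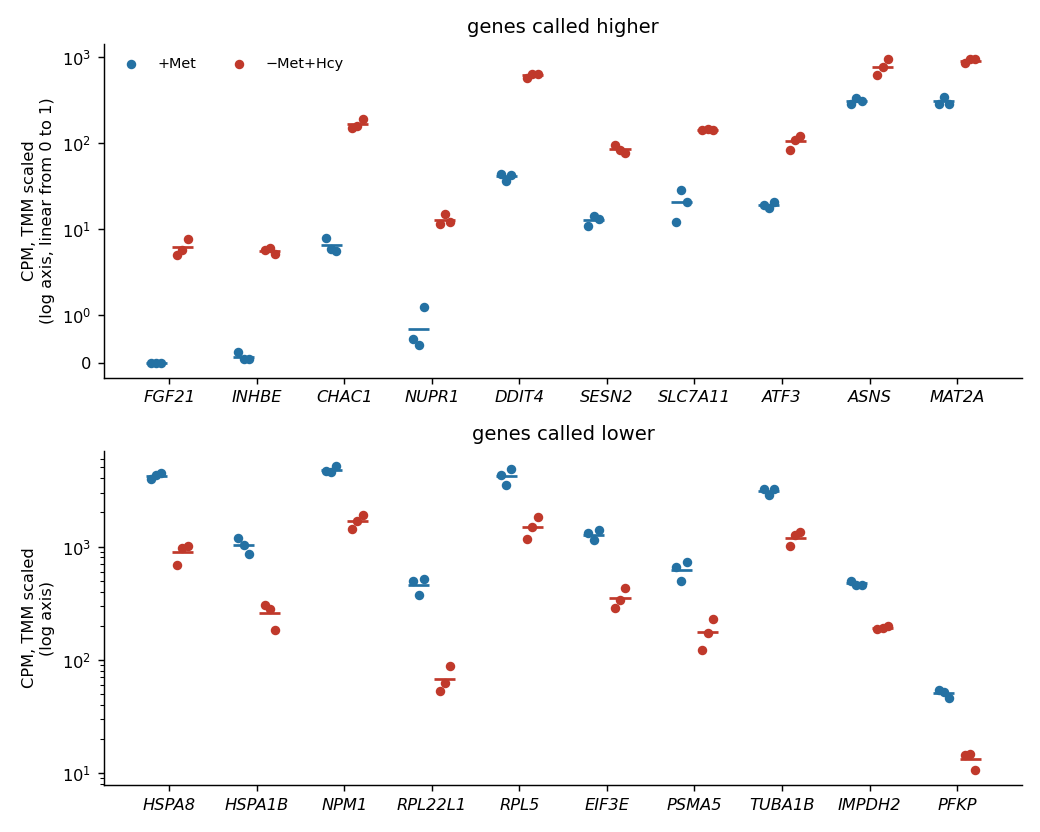
CPM, scaled by TMM, of 10 genes called higher (top, log axis that is linear from 0 to 1) and 10 called lower (bottom, log axis) in each library, with +Met in blue, −Met+Hcy in red and a bar at each mean of 3 libraries. The libraries of the media do not overlap in any of the 20 genes, and FGF21 is at 0 in all 3 +Met libraries.

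Amino acid synthesis and uptake changed in selected genes. Of 20 synthesis genes 3 were higher (15%, against 7.87% of all genes tested) and 0 lower, and 5 were higher with total count scaling. ASNS, which makes asparagine, rose from 305 ± 20.8 to 764 ± 164 CPM (SD, n = 3), with 605, 754 and 934 CPM in the −Met+Hcy libraries. PSAT1, of serine synthesis, rose from 330.3 ± 32.5 to 786 ± 141 CPM (SD, n = 3; log2 fold change 1.25), and GPT2, a transaminase that makes alanine, from 36.9 ± 3.75 to 83.6 ± 4.8 CPM (SD, n = 3; log2 fold change 1.18). PHGDH, the first enzyme of serine synthesis, was at 474, 383 and 376 CPM in +Met and 611, 658 and 644 CPM in −Met+Hcy and was not called (log2 fold change 0.63). The list took 0.247, 0.251 and 0.237% of all counts in +Met against 0.443, 0.478 and 0.488% in −Met+Hcy, above the +Met range in all 3 libraries.

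Of 28 amino acid transporters 3 were higher (10.7%, against 7.87% of all genes tested) and 3 lower (10.7%, against 3.8%). SLC6A9, a glycine transporter, was at 9.86, 10.1 and 9.78 CPM in +Met and 41.2, 39.1 and 38.3 CPM in −Met+Hcy (log2 fold change 1.99, standard error 0.13, edgeR adjusted p = 4.1e-06), and SLC1A4, a transporter of neutral amino acids, rose as well (log2 fold change 1.65). SLC6A6, the taurine transporter, was at 11.4, 14.9 and 10.8 CPM in +Met and 3.76, 3.12 and 2.55 CPM in −Met+Hcy (log2 fold change -1.97, standard error 0.21, edgeR adjusted p = 7.47e-05), and SLC1A1, a glutamate transporter, fell as well (log2 fold change -1.45). With total count scaling 9 transporters were higher and 2 lower. SLC3A2, the heavy chain of a carrier of large neutral amino acids that takes up methionine, was at 337, 315 and 299 CPM in +Met and 719, 736 and 679 CPM in −Met+Hcy and rose (log2 fold change 1.17), while its light chain SLC7A5 was at 291, 288 and 276 CPM in +Met and 472, 427 and 351 CPM in −Met+Hcy and was not called (log2 fold change 0.55).

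Enzymes that load amino acids onto tRNA changed in both directions. Of 20 cytosolic synthetases 1 was called higher (5%, against 7.87% of all genes tested) and 2 lower (10%, against 3.8%). At the adjusted p-value alone 9 of the 20 were higher and 6 lower, larger shares than the 18.6 and 15.5% of all genes tested. CARS1, for cysteine, rose (39.1 ± 1.72 to 82.1 ± 5.44 CPM, SD, n = 3), while VARS1, for valine, and RARS1, for arginine, fell (log2 fold change -1.41 and -1.04). RARS1 was not called without +Met replicate 2 (log2 fold change -0.98) or with total count scaling. With total count scaling 4 were higher and 1 lower. The median of the list was 0.16 (0.45 with total count scaling), and it took 0.535, 0.576 and 0.491% of all counts in +Met against 0.795, 0.816 and 0.777% in −Met+Hcy. Among 17 mitochondrial synthetases PARS2, for proline, was the 1 called, at 17.7, 19.2 and 22.9 CPM in +Met and 46.5, 58.3 and 58.8 CPM in −Met+Hcy, and the median was -0.10 (0.19 with total count scaling).

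In the methionine cycle the gene with the largest gain in CPM was MAT2A, the catalytic subunit of the SAM synthetase of most tissues (chromosome 2 of GRCh38, 85539168 to 85545281). It was at 282, 343 and 279 CPM in +Met and 838, 931 and 931 CPM in −Met+Hcy (log2 fold change 1.58, standard error 0.15, edgeR adjusted p = 2.92e-05), a rise of the same order in all 3 libraries. Of 24 genes in the list 2 were higher (8.33%, against 7.87% of all genes tested) and 1 lower (4.17%, against 3.8%), shares close to those of all genes. At the adjusted p-value alone 3 of the 24 were higher, a smaller share than the 18.6% of all genes tested. A further 8 were lower, a larger share than the 15.5% of all genes tested. The median of the list was -0.22 (0.07 with total count scaling). TCN2, which carries vitamin B12, was the other gene called higher, but its mean was under 1 CPM in both media and the call was lost with any one library left out except −Met+Hcy replicate 1 (log2 fold change 1.67, and 1.34 to 1.88 with a library left out). SMS, spermine synthase, which uses a product of SAM, fell from 174 ± 4.05 to 73.7 ± 3.51 CPM (SD, n = 3; log2 fold change -1.24, standard error 0.12, edgeR adjusted p = 4.51e-05), a call lost with total count scaling (-0.95), where 3 genes of the list were higher and 0 lower. The list had 1 gene higher and 3 lower when +Met replicate 2 or −Met+Hcy replicate 3 was left out.

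The other genes around SAM moved less. MAT2B, the regulatory subunit of the synthetase, had a log2 fold change of -0.64, and AHCY, which splits S-adenosylhomocysteine, -0.39. MTR, methionine synthase, was at 62.7, 99.8 and 78.8 CPM in +Met and 108, 79.5 and 64.4 CPM in −Met+Hcy, with overlapping libraries, and MTRR, which keeps it active, had a log2 fold change of 0.51. In methionine salvage, which recovers methionine from the polyamine pathway, MTAP had a log2 fold change of -0.31, MRI1 of -0.59, APIP of -0.98, ENOPH1 of -0.37 and ADI1 of -0.75. APIP came nearest to the threshold, at 69.9, 67.6 and 73.2 CPM in +Met and 29.8, 35.8 and 41.5 CPM in −Met+Hcy (edgeR adjusted p = 0.000466). In polyamine synthesis, AMD1 had a log2 fold change of 0.30, ODC1 of -0.21 and SRM of -0.41. All of these genes missed the fold threshold in the fit of the 6 libraries with TMM scaling.

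Homocysteine can also leave the cycle toward cysteine and glutathione. Of 15 genes of that path 2 were higher (13.3%, against 7.87% of all genes tested) and 0 lower. SLC7A11, which imports cystine, was at 12, 28.3 and 20.6 CPM in +Met and 139, 143 and 139.8 CPM in −Met+Hcy (log2 fold change 2.79, standard error 0.24, edgeR adjusted p = 1.91e-05). CTH, which makes cysteine, was at 19.7, 22.5 and 19.4 CPM in +Met and 68.2, 81 and 85 CPM in −Met+Hcy (log2 fold change 1.93, standard error 0.14, edgeR adjusted p = 8.13e-06). Both are known targets of ATF4. GCLM, a subunit of the first enzyme of glutathione synthesis, was at 40.3, 47.9 and 47 CPM in +Met and 22.3, 22.9 and 25.1 CPM in −Met+Hcy and was not called (log2 fold change -0.94). The median of the list was -0.25, and 0.04 with total count scaling. The median of 15 folate enzymes was -0.12 (0.17 with total count scaling). Of these enzymes 2 were called higher (13.3%, against 7.87% of all genes tested), and 0 in the model of all 12 libraries. ALDH1L1 was one, with mean levels under 1 CPM, and MTHFD2L (9.42 ± 3.15 to 19.3 ± 5.31 CPM, SD, n = 3) was the other, whose call was lost when +Met replicate 1, +Met replicate 2 or −Met+Hcy replicate 3 was left out (log2 fold changes of 0.95, 0.85 and 0.81).

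Enzymes that use SAM, counted with readers and other partners, passed both thresholds at shares near those of all genes. Of 38 methyltransferases and their partners 2 were higher with TMM scaling (5.26%, against 7.87% of all genes tested). A further 2 were lower (5.26%, against 3.8%), and the median was 0.03. At the adjusted p-value alone 16 of the 38 were higher and 9 lower, larger shares than the 18.6 and 15.5% of all genes tested. Libraries did not overlap between the media in 30 of the 38, a larger share than the 47.1% of all genes tested. With total count scaling 7 were higher and 0 lower (median 0.33), and 4 were higher when +Met replicate 2 or −Met+Hcy replicate 3 was left out. The model of all 12 libraries called 1 higher and 1 lower. PRMT6, which methylates arginine in histones, was at 45.2, 37.8 and 42.6 CPM in +Met and 105, 102 and 109 CPM in −Met+Hcy (log2 fold change 1.33), and YTHDF2, which reads methylated adenosine in mRNA, was at 189.9, 187 and 184 CPM in +Met and 419, 445 and 439 CPM in −Met+Hcy (log2 fold change 1.21). PRMT1, the main arginine methyltransferase, fell from 545 ± 66.9 to 242 ± 40 CPM (SD, n = 3; log2 fold change -1.17), a call lost with total count scaling (-0.88). DNMT3A, a DNA methyltransferase, was called lower (log2 fold change -1.04) but not without −Met+Hcy replicate 3 (-0.88) or with total count scaling. METTL3, which methylates adenosine in mRNA, was at 134, 136 and 123 CPM in +Met and 78.6, 80.5 and 85.1 CPM in −Met+Hcy (log2 fold change -0.69).

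The phosphatase PP2A is itself methylated at its catalytic subunit, a modification that the study follows. Of 27 PP2A genes edgeR and DESeq2 called 0 (3 higher and 7 lower at an unadjusted p under 0.05), 1 was called lower without −Met+Hcy replicate 3, and the median was -0.03 (0.27 with total count scaling). The catalytic subunit PPP2CA was at 181, 178 and 168 CPM in +Met and 236, 253 and 249 CPM in −Met+Hcy (log2 fold change 0.49), and PPP2CB at 49.4, 44.7 and 43.6 CPM in +Met and 42.6, 45.3 and 40.2 CPM in −Met+Hcy (log2 fold change -0.10). The scaffold subunit PPP2R1A had a log2 fold change of -0.66. LCMT1, which adds the methyl group, was at 44.9, 40.7 and 42.3 CPM in +Met and 26.4, 37 and 39.1 CPM in −Met+Hcy (log2 fold change -0.32, edgeR adjusted p = 0.139). PPME1, which removes it, was at 36.3, 37.2 and 33.6 CPM in +Met and 20.8, 20.5 and 17.2 CPM in −Met+Hcy (log2 fold change -0.87, standard error 0.14, edgeR adjusted p = 0.00065), with no overlap between the media and a change short of the fold threshold.

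Many chaperones of the cytosol fell. Of 19 heat shock chaperones 9 were lower and 0 higher, and 16 were lower at the adjusted p-value alone, with a median of -0.95 (-0.66 with total count scaling, where 5 were lower). HSPA8, the constitutive Hsp70, was at 3927, 4265 and 4484 CPM in +Met and 689, 972 and 1003 CPM in −Met+Hcy (log2 fold change -2.25, standard error 0.18, edgeR adjusted p = 1.31e-05). The highest −Met+Hcy library stood far under the lowest +Met library. HSPA1B, an inducible Hsp70, was at 1179.6, 1028 and 859 CPM in +Met and 305, 280.5 and 182 CPM in −Met+Hcy (log2 fold change -2.0, standard error 0.21, edgeR adjusted p = 5.74e-05), and its near-identical copy HSPA1A, between which the counting could split reads, fell as well (log2 fold change -1.71). HSPA4, a nucleotide exchange factor for Hsp70, fell from 605 ± 26.4 to 199.9 ± 11 CPM (SD, n = 3). DNAJB1, a partner of Hsp70 that heat shock also induces, was at 131, 119.7 and 130.3 CPM in +Met and 116, 145 and 136 CPM in −Met+Hcy and was not called (log2 fold change 0.06). The list took 1.43, 1.6 and 1.37% of all counts in +Met against 0.738, 0.757 and 0.679% in −Met+Hcy.

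Heat shock factors bind inverted repeats of GAA. The pattern of GAA, any 2 bases, TTC, any 2 bases and GAA was searched on both strands in the same 250 bases before the start, and 0.295% of all promoters held it, as did 3 of 920 of higher genes (0.326%) and 1 of 410 of lower genes (0.244%). The 1 lower gene was HSPA8, which held it more than once, and both stretches are shown with the match in capitals, on the minus strand of GRCh38.p14 from RefSeq.
HSPA8 chr11:123062346-123062374: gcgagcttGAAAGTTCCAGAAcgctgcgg
HSPA8 chr11:123062171-123062199: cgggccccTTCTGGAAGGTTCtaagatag
The matches lie 230 to 218 and 55 to 43 bases before the RefSeq start, inside the span of longer GENCODE transcripts of the gene. The shares of higher and lower genes with this pattern were close to that of all promoters.

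Some subunits of the machines for folding and degrading proteins fell too. Of 14 subunits of the CCT chaperonin, which folds actin and tubulin, and of its partner prefoldin, 3 were lower and 0 higher, and 12 were lower at the adjusted p-value alone (median -0.80). PFDN4 fell from 148 ± 24.7 to 60.8 ± 22.2 CPM, TCP1 from 1336 ± 51.7 to 608 ± 62.3 CPM and CCT2 from 552 ± 39.5 to 267 ± 14.9 CPM (SD, n = 3). With total count scaling 0 of the 14 were called and the median was -0.51, and CCT2 was not called without +Met replicate 2 (log2 fold change -0.99). Without −Met+Hcy replicate 3 the number lower was 5. Of 32 proteasome subunits 7 were lower and 0 higher, and 29 were lower at the adjusted p-value alone (median -0.85, and -0.56 with total count scaling). PSMA5, of the ring of alpha subunits, was at 657, 493 and 723 CPM in +Met and 122, 172 and 231 CPM in −Met+Hcy (log2 fold change -1.83, standard error 0.23, edgeR adjusted p = 0.000155). The number of proteasome subunits called was 4 without −Met+Hcy replicate 1 and up to 13 without another library, 2 with total count scaling, and 4 in the model of all 12 libraries. Of 13 tubulins 3 were lower, among them TUBA1B, which fell from 3111 ± 208 to 1199.9 ± 176 CPM (SD, n = 3), TUBA1C (log2 fold change -1.33) and TUBB (log2 fold change -1.12). The median of the tubulins was -0.21, but 0.08 with total count scaling, where 1 was higher and 2 were lower. Tubulin genes are near-identical over long stretches, and TUBB has several entries, so that reads could be split between them.

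Ribosomal proteins fell in part. Of 79 cytosolic ribosomal proteins 18 were lower and 0 higher, and 59 were lower at the adjusted p-value alone, with a median of -0.72 (-0.43 with total count scaling, where 8 were called). They took 15.8, 13.4 and 17.1% of all counts in +Met against 9.51, 11.3 and 13.4% in −Met+Hcy, with +Met replicate 2 and −Met+Hcy replicate 3 nearly level. RPL17 was at 2192, 1588 and 2266 CPM in +Met and 387, 468 and 666 CPM in −Met+Hcy (log2 fold change -1.99, standard error 0.22, edgeR adjusted p = 7.96e-05), and RPL26, RPL14 and RPL7 fell by 1.76, 1.75 and 1.56 on the log2 scale. RPL5, which with other proteins forms a particle that restrains MDM2, fell from 4207 ± 674 to 1484 ± 324 CPM (SD, n = 3). RPL22L1, a paralog of RPL22 with no place in the list, fell from 461 ± 77.7 to 67.4 ± 18.1 CPM (SD, n = 3; log2 fold change -2.77). The number called was 9 without −Met+Hcy replicate 1, whose ribosomal share was the lowest, and up to 37 without another library. Ribosomal protein genes have many processed pseudogenes that can share reads with them.

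Of 44 translation factors 4 were lower (9.09%) and 0 higher, against 3.8% lower of all genes tested and 11.1% of those at a mean log2 CPM of 8 and over. The median was -0.47, and -0.17 with total count scaling, where 1 was called lower and 1 higher. Without that scaling 4 were lower. All 4 were subunits of eIF3, the scaffold of initiation. EIF3E was at 1306, 1133 and 1387 CPM in +Met and 284, 334 and 428 CPM in −Met+Hcy (log2 fold change -1.87, standard error 0.18, edgeR adjusted p = 3.42e-05), and EIF3H, EIF3M and EIF3F had log2 fold changes of -1.17, -1.17 and -1.10. Of 40 genes of ribosome biogenesis and the nucleolus 4 were lower (median -0.34). NPM1, an abundant nucleolar chaperone, was at 4687, 4528 and 5112 CPM in +Met and 1433, 1698 and 1907 CPM in −Met+Hcy (log2 fold change -1.51, standard error 0.16, edgeR adjusted p = 7.45e-05), and EBNA1BP2, PA2G4 and NOP56 fell by 1.24, 1.21 and 1.08 on the log2 scale but were not called with total count scaling.

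Some transcripts of the mitochondrial genome fell. Of the 13 protein-coding genes 6 were lower and 0 higher, with a median of -0.97 (-0.68 with total count scaling, where 4 were called). MT-ND6 was at 1069, 996 and 733 CPM in +Met and 365, 219 and 209 CPM in −Met+Hcy (log2 fold change -1.82, standard error 0.23, edgeR adjusted p = 0.000177), and MT-ND5, MT-CYB and MT-CO2 fell by 1.67, 1.44 and 1.42 on the log2 scale. MT-ATP6 fell from 5532 ± 1150.3 to 2504 ± 614 CPM (SD, n = 3), a call lost with total count scaling (-0.84). MT-ND4, at the threshold with a log2 fold change of -1.01, lost its call when +Met replicate 1 (-0.90), +Met replicate 2 (-0.93), −Met+Hcy replicate 2 (-0.86) or −Met+Hcy replicate 3 (-0.90) was left out. MT-ND2 (log2 fold change 0.03, edgeR adjusted p = 0.934) and MT-ND3 (log2 fold change -0.26, edgeR adjusted p = 0.213) were not called. The 13 genes took 4.84, 4.96 and 3.42% of all counts in +Met against 3.85, 2.38 and 2.54% in −Met+Hcy, and these ranges overlap, with +Met replicate 3 under −Met+Hcy replicate 1.

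The nuclear genes of the respiratory chain had a median of -0.48 (-0.19 with total count scaling). Of 75, 7 were lower, but 0 were called with total count scaling or without +Met replicate 3 or −Met+Hcy replicate 1, and up to 15 without another library. ATP5MC3, a subunit of ATP synthase, was at 546, 474 and 598 CPM in +Met and 203, 259 and 317 CPM in −Met+Hcy (log2 fold change -1.05, and -0.97 and -0.90 without those libraries). Mitochondrial ribosomal proteins had a median of -0.19 (0.09 with total count scaling), with 6 of 77 lower, and 3 without −Met+Hcy replicate 1. MRPS9, of the small subunit, fell from 80.6 ± 3.04 to 36 ± 2.68 CPM (SD, n = 3; log2 fold change -1.16), and 0 of the 77 were called lower with total count scaling.

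**Figure D4:**
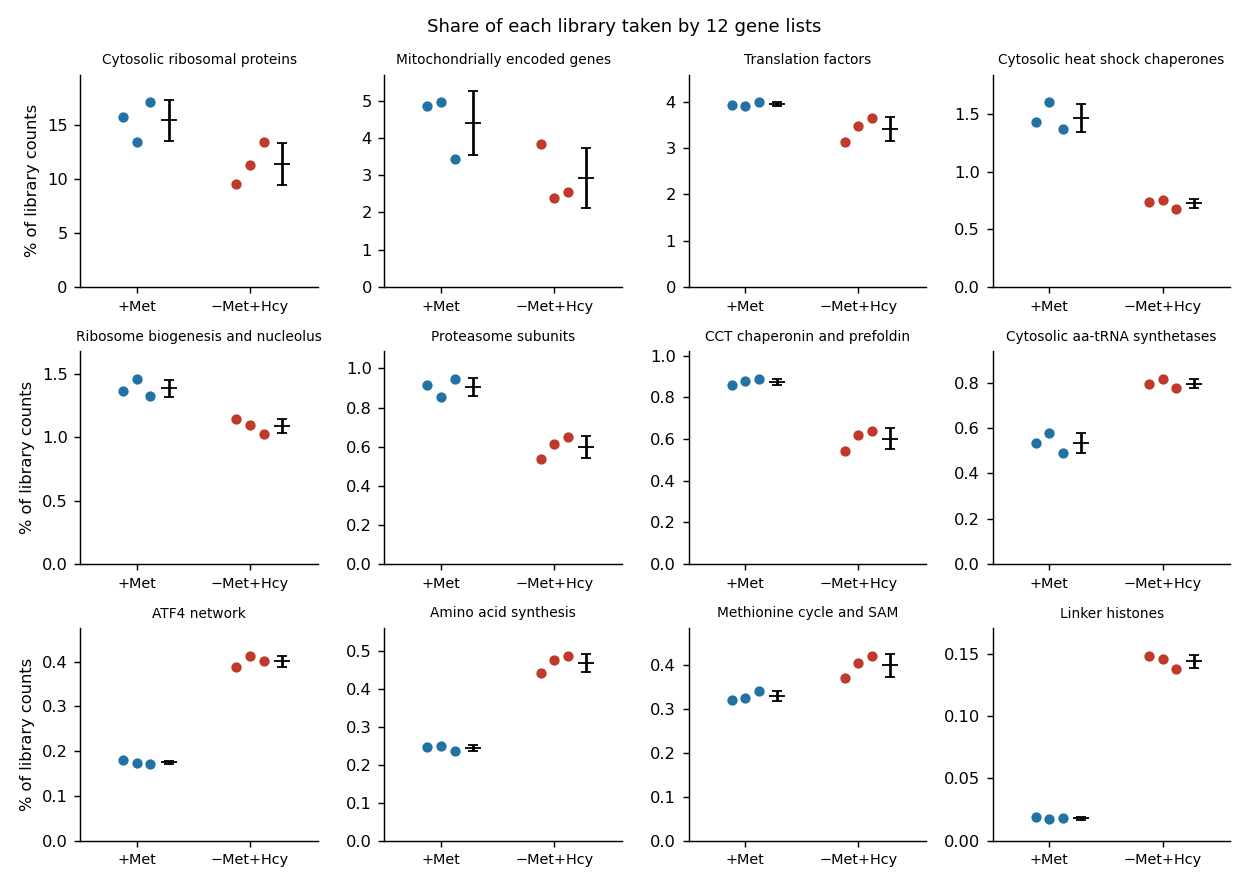
Percent of a library's counts taken by 12 gene lists, from 0 on each vertical axis, with +Met libraries in blue, −Met+Hcy libraries in red and the mean with its SD (n = 3) in black. Ribosomal proteins held 13.4 to 17.1% of +Met and 9.51 to 13.4% of −Met+Hcy libraries, and linker histones 0.0172 to 0.0192% and 0.138 to 0.148%.

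Some genes of sterol, lipid and nucleotide synthesis fell. Of 24 sterol genes 6 were lower and 0 higher (median -0.57, and -0.28 with total count scaling, where 1 was called). IDI1, of the mevalonate pathway, was at 127, 123 and 153 CPM in +Met and 47.3, 59.6 and 62.9 CPM in −Met+Hcy (log2 fold change -1.25, standard error 0.15, edgeR adjusted p = 0.00015). MVD and IDI1, of that pathway, and INSIG1, which holds the sterol sensor in place, fell by 1.29, 1.25 and 1.24 on the log2 scale but not past the thresholds with total count scaling. Of 22 genes of fatty acid and phospholipid synthesis 3 were lower. FADS2, a desaturase, fell from 6.35 ± 1.7 to 1.89 ± 0.483 CPM (SD, n = 3; log2 fold change -1.75), and PEMT, which makes phosphatidylcholine with methyl groups of SAM, from 44.3 ± 6.4 to 21.1 ± 1.93 CPM (SD, n = 3; log2 fold change -1.07). PEMT was not called without +Met replicate 1 (-0.97) or with total count scaling, and FADS1 stood at the threshold (log2 fold change -1.0) and was not called without +Met replicate 3, −Met+Hcy replicate 1 or −Met+Hcy replicate 2 (-0.91, -0.96 and -0.95). FASN, the fatty acid synthase, was at 838, 794 and 674 CPM in +Met and 561, 344 and 260.2 CPM in −Met+Hcy and was not called (log2 fold change -0.98).

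In glycolysis and glucose uptake 1 of 23 genes was higher (4.35%, against 7.87% of all genes tested) and 2 were lower (8.7%, against 3.8%). The median was -0.48, and -0.18 with total count scaling. SLC2A14, a glucose transporter with a near-identical copy, SLC2A3, that could share its reads, was at 44.9, 47.3 and 38.6 CPM in +Met and 263, 296 and 309.9 CPM in −Met+Hcy (log2 fold change 2.73, standard error 0.15, edgeR adjusted p = 9e-07). PFKP, a phosphofructokinase, was at 53.5, 51.4 and 46.2 CPM in +Met and 14.3, 14.5 and 10.6 CPM in −Met+Hcy (log2 fold change -1.93, standard error 0.16, edgeR adjusted p = 1.31e-05), and LDHA, a lactate dehydrogenase, fell from 601 ± 19.1 to 268 ± 33.4 CPM (SD, n = 3; log2 fold change -1.17, and -0.88 with total count scaling, under which it was not called). GAPDH was at 3405, 2868 and 3192 CPM in +Met and 1619, 1888 and 2067 CPM in −Met+Hcy (log2 fold change -0.76). In nucleotide synthesis, with a median of -0.47, 2 of 28 were lower (7.14%, against 3.8% of all genes tested), both of guanine nucleotides. IMPDH2 was at 500.1, 461 and 458 CPM in +Met and 185, 192 and 197 CPM in −Met+Hcy (log2 fold change -1.31, standard error 0.13, edgeR adjusted p = 4.35e-05), and GMPS was at the threshold (log2 fold change -1.01), not called without +Met replicate 2, −Met+Hcy replicate 1 or −Met+Hcy replicate 3 (-0.96, -0.98 and -0.98). TFRC, which brings iron into the cell, was the 1 of 14 iron genes called, and fell from 239 ± 37.2 to 101 ± 1.09 CPM (SD, n = 3; log2 fold change -1.24, and -0.95 with total count scaling). PIR was the 1 of 19 genes of the pentose phosphate path and NRF2 that fell (log2 fold change -1.39), with a median of -0.28 (0.02 with total count scaling). Of these genes 3 were lower without −Met+Hcy replicate 3, and 2 without +Met replicate 1 or +Met replicate 2.

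Many histone genes rose. Of 58 replication-dependent core histone genes listed 39 were tested. H2BC9, with 0 counts in +Met, passed the filter through −Met+Hcy alone. Of the 39, 24 were higher and 0 lower, with a median of 1.84, and 21 to 24 were higher with a library left out. The number was 28 with total count scaling and 9 in the model of all 12 libraries. These genes lie in clusters, and their mRNA ends in a stem-loop in place of a poly(A) tail. The library preparation is not given in the sources used here, so that the share of such mRNA captured is unknown, and most members were at low levels. H2AC6 was at 0.568, 0.583 and 1.58 CPM in +Met and 19.4, 24.9 and 22.6 CPM in −Met+Hcy (log2 fold change 4.59, standard error 0.30, edgeR adjusted p = 3.36e-06), and H3C10 at 0, 0.0729 and 0.413 CPM in +Met and 5.7, 5.56 and 5.6 CPM in −Met+Hcy (log2 fold change 5.02, standard error 0.52, edgeR adjusted p = 5.77e-05). H2AC18 and H2AC19 had the same counts in every library (log2 fold change 2.98) and cannot be told apart. Core histone genes are near-identical copies of each other, so that the counting could split their reads.

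All 5 linker histone genes tested, of 8 in the list, were higher (median 3.08, and 2.25 with a gene at 0 in +Met set to its bound). Linker histones bind the DNA between nucleosomes and compact chromatin. H1-10, which is polyadenylated, was at 139, 106 and 129.5 CPM in +Met and 557, 612 and 619 CPM in −Met+Hcy (log2 fold change 2.25, standard error 0.15, edgeR adjusted p = 4.1e-06), and H1-2 at 4.47, 3.72 and 6.61 CPM in +Met and 83.6, 102 and 125 CPM in −Met+Hcy (log2 fold change 4.38, standard error 0.23, edgeR adjusted p = 8.23e-07). H1-3 had 0 counts in every +Met library and was at least 3.84-fold higher. Its 14, 22 and 7 counts in −Met+Hcy alone brought it past the filter, so that its direction was fixed by the filter. The 3 −Met+Hcy libraries lay above all +Met libraries in each of these genes. Of 10 replication-independent histones 2 were higher, H2BU1 and H2AW (5.81 ± 2.14 to 21.4 ± 4.96 CPM, SD, n = 3; log2 fold change 1.88), with 4 under total count scaling or with the trends of GC content and length removed and 0 in the model of all 12 libraries.

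Few genes of S phase, G2 and mitosis passed both thresholds, while falls at the adjusted p-value alone were more frequent than among all genes. Of 42 genes of S phase and replication 2 were higher (4.76%, against 7.87% of all genes tested) and 2 lower (4.76%, against 3.8%). The median was -0.26, and 0.03 with total count scaling. At the adjusted p-value alone 3 of the 42 were higher, a smaller share than the 18.6% of all genes tested. A further 15 were lower, a larger share than the 15.5% of all genes tested. DTL, a receptor of the ligase that degrades CDT1, was at 108, 139 and 114 CPM in +Met and 284, 307 and 296 CPM in −Met+Hcy (log2 fold change 1.30, standard error 0.14, edgeR adjusted p = 7.74e-05), and rose. CCNE2, cyclin E2, was at 27.5, 29.7 and 31.6 CPM in +Met and 10.1, 12.5 and 14.1 CPM in −Met+Hcy (log2 fold change -1.28, standard error 0.16, edgeR adjusted p = 0.000149) and fell, a call that was lost with total count scaling. FEN1, called higher, and POLE2, called lower, stood near the threshold (log2 fold change 1.0 and -1.09), and each call could be lost with 1 library. Leaving out +Met replicate 2, +Met replicate 3, −Met+Hcy replicate 1 or −Met+Hcy replicate 2 ended that of FEN1 (down to 0.94), and +Met replicate 3 or −Met+Hcy replicate 1 that of POLE2 (up to -0.92). Of 43 genes of G2 and mitosis 0 were higher and 2 lower (4.65%, against 3.8% of all genes tested). The median was -0.25, and 0.04 with total count scaling. At the adjusted p-value alone 2 of the 43 were higher, a smaller share than the 18.6% of all genes tested. A further 17 were lower, a larger share than the 15.5% of all genes tested, and 33 of the 43 had a negative log2 fold change. CKS2, a binding partner of cyclin-dependent kinases, was at 416, 269 and 450.5 CPM in +Met and 99.9, 141 and 183 CPM in −Met+Hcy (log2 fold change -1.42), and PTTG1, securin, was not called without −Met+Hcy replicate 1 (log2 fold change -1.10, and -1.0 without it). The list took 0.684, 0.696 and 0.707% of all counts in +Met against 0.681, 0.712 and 0.701% in −Met+Hcy, with overlapping ranges.

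Of 19 G1 cyclins and inhibitors of cyclin-dependent kinases 4 were higher, all 4 of them inhibitors at low levels. CDKN2B was at 1.49, 2.26 and 1.86 CPM in +Met and 6.01, 4.66 and 4.91 CPM in −Met+Hcy (log2 fold change 1.47, standard error 0.26, edgeR adjusted p = 0.0012) and held with each library left out. CDKN1C, CDKN1A and CDKN2D, with log2 fold changes of 1.13, 1.02 and 1.01, did not, and 2 of the 4 were called when +Met replicate 1, +Met replicate 2, −Met+Hcy replicate 1 or −Met+Hcy replicate 3 was left out. CDKN1A, a target of p53, was at 2.06, 1.24 and 1.86 CPM in +Met and 4.0, 2.97 and 3.55 CPM in −Met+Hcy, and HEK293T cells carry a viral protein that binds p53.

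Some transcription factors of growth signalling and cell fate rose. Of 28 immediate early genes and feedback regulators of MAPK 8 were higher and 0 lower (median 0.67), with 13 higher under total count scaling and 3 in the model of all 12 libraries. KLF10, induced by TGF-beta, was at 21, 23.8 and 24.6 CPM in +Met and 97.3, 102 and 101 CPM in −Met+Hcy (log2 fold change 2.12, standard error 0.13, edgeR adjusted p = 2.51e-06), and BTG1, which restrains proliferation, and IER2 rose by less (log2 fold change 1.44 and 1.40). Of 14 ID, SNAI and SMAD genes 5 were higher and 11 were at the adjusted p-value alone (median 0.89), with 9 past both thresholds under total count scaling. HEY1 and HES1, which Notch signalling induces, were at 202, 194 and 219 CPM in +Met and 531, 600.3 and 655 CPM in −Met+Hcy and at 20.4, 24.6 and 20.9 CPM in +Met and 48.5, 49.1 and 57.7 CPM in −Met+Hcy. SNAI2, a repressor of epithelial genes, was at 90, 83.9 and 87.3 CPM in +Met and 219, 237 and 249 CPM in −Met+Hcy (log2 fold change 1.43, standard error 0.13, edgeR adjusted p = 2.41e-05). SNAI1 was under 2 CPM in every library and was not called without any one library except +Met replicate 3 (log2 fold change 1.31, and 1.09 to 1.82 with a library left out).

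Targets of YAP and SRF moved both ways. Of 19 tested 5 were higher and 1 lower, with 10 positive and 9 negative log2 fold changes and a median of 0.06 (0.35 with total count scaling). The list's mean share of all counts fell from 0.502% in +Met to 0.379% in −Met+Hcy, without overlap between the media. ANKRD1, a cofactor of transcription, was at 1.42, 2.48 and 0.964 CPM in +Met and 7.64, 11.3 and 7.03 CPM in −Met+Hcy (log2 fold change 2.42, standard error 0.32, edgeR adjusted p = 0.000238), and LATS2 and AJUBA, of the Hippo pathway, rose from 5.4 ± 0.821 to 14.3 ± 1.52 CPM and from 9.98 ± 1.9 to 25.8 ± 1.92 CPM (SD, n = 3). AXL was without counts in +Met and had a mean under 1 CPM in −Met+Hcy, and its call was lost without +Met replicate 1, +Met replicate 3 or −Met+Hcy replicate 2, where 3 of the list were the fewest called. The gene called lower was ACTG1, a cytoplasmic actin (log2 fold change -1.01), which was not called without +Met replicate 1, +Met replicate 3 or −Met+Hcy replicate 1. Of 17 genes of the BCL2 family, which set the threshold for apoptosis, 4 were higher and 0 lower. MOAP1, which activates BAX, was at 5.39, 4.81 and 5.44 CPM in +Met and 20.2, 20.5 and 18.2 CPM in −Met+Hcy (log2 fold change 1.91, standard error 0.16, edgeR adjusted p = 1.35e-05), PMAIP1, or NOXA, at 15.7, 16.5 and 22.7 CPM in +Met and 36.6, 45.6 and 58.3 CPM in −Met+Hcy (log2 fold change 1.35), and BMF, also a promoter of death, was at 2.0, 1.85 and 1.8 CPM in −Met+Hcy (log2 fold change 2.70). BCL2L1, a guard against death, rose from 13.7 ± 1.92 to 31.2 ± 0.687 CPM (SD, n = 3; log2 fold change 1.18). MOAP1 and SESN2 each have a further entry with identical counts. Of 17 p53 targets 3 were higher (17.65%, against 7.87% of all genes tested), CDKN1A, TP53INP1 and PHLDA3, and RPS27L was lower. The number higher was 1 without +Met replicate 2 or in the model of all 12 libraries, and 5 with total count scaling. Of 16 interferon genes tested 3 were higher (18.75%, against 7.87% of all genes tested), IFIT2, IFIH1 and OASL, all with means under 2 CPM. The number higher was 1 without +Met replicate 1, +Met replicate 3 or −Met+Hcy replicate 2. MAGEF1, a partner of ubiquitin ligases, was the one over 5 CPM of 3 higher genes among 16 MAGE and cancer-testis genes (19.2 ± 2.54 to 52.9 ± 1.12 CPM, SD, n = 3), and 1 was called without −Met+Hcy replicate 2.

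Other large changes fell outside these groups. Among 993 called genes that reached a mean of 5 CPM in either medium without overlap, the 12 largest rises included HSF2BP, a binding partner of heat shock factor 2, at 0.426, 0.219 and 0.827 CPM in +Met and 11, 12 and 11.7 CPM in −Met+Hcy. They also included DHRS2, a short-chain dehydrogenase, at 6.74, 8.09 and 6.27 CPM in +Met and 121, 123 and 86.1 CPM in −Met+Hcy (log2 fold change 3.97, standard error 0.19, edgeR adjusted p = 3.46e-07), DNAH3, a dynein heavy chain (log2 fold change 3.91), and MYOM2, a myomesin (log2 fold change 3.58). ZNF503, a zinc finger repressor, was among the 6 with the largest gain in CPM, at 293, 232 and 235 CPM in +Met and 938, 794 and 724 CPM in −Met+Hcy. The 12 largest falls included ANKMY1 (log2 fold change -2.79), PDE9A, a phosphodiesterase of cyclic GMP (16.2 ± 3.09 to 2.53 ± 0.804 CPM, SD, n = 3), and SCAMP4, a membrane carrier protein, at 32.1, 29.9 and 32.9 CPM in +Met and 6.55, 5.19 and 5.66 CPM in −Met+Hcy (log2 fold change -2.45, standard error 0.15, edgeR adjusted p = 2.71e-06). HSF4, a heat shock factor, was at 10.1, 5.98 and 4.62 CPM in +Met and 2.18, 0.583 and 0.995 CPM in −Met+Hcy (log2 fold change -2.47). DOK3, AOC2, NKD2 and OSBPL5 fell by 2.35, 2.34, 2.26 and 2.26 on the log2 scale. The remaining ones were the immunoglobulin segment IGLV1-51 (log2 fold change -2.55) and the readthrough gene SPECC1L-ADORA2A (log2 fold change -2.19), whose reads overlap with those of its parts.

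Some functions were not called at all. Among 27 genes of autophagy and the lysosome edgeR and DESeq2 called 0 (5 higher and 6 lower at an unadjusted p under 0.05), with a median of -0.15 (0.14 with total count scaling), and LAMP2, of the lysosomal membrane, was at 165, 178 and 225 CPM in +Met and 142, 172 and 196 CPM in −Met+Hcy. Among 28 Sm and SR proteins of the spliceosome edgeR called 0 and DESeq2 called 1 lower, and edgeR called 1 or 2 lower with any one library left out. At the adjusted p-value alone 15 were lower, and at an unadjusted p under 0.05 17 were (median -0.49, and -0.19 with total count scaling). HNRNPC, of that list, was at 1664, 1542 and 1821 CPM in +Met and 934, 1206 and 1466 CPM in −Met+Hcy (log2 fold change -0.48). A count of 0 says that no member passed both thresholds, not that the genes were unaltered.

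The genes called higher differed in structure from the rest. By the canonical transcript of GENCODE, which could be assigned to 14970 symbols tested, 9.78% of the higher genes had a single exon, against 2.5% of the lower genes and 2.19% of those not called. Read the other way, 28% of the 421 single-exon genes were higher, 17.4% of the 771 genes with 2 exons and 5.12% of the 4201 with 11 to 20. The lower genes showed no such gradient, at 2.59 to 4.56% of each class. Of the single-exon genes 48 were histone genes, and without them 23.3% of 373 were higher. Single-exon genes also had lower CPM, which is not per length, with a median log2 CPM of 1.47 against 4.25 for all.

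The difference was seen within the level classes from 0 to 8 and not under 0, where 14.2% of single-exon genes without histones and 14.2% of genes with more exons were higher. Among genes with a mean log2 CPM of 4 to 6, 29.6% of 71 single-exon genes without histones were higher, against 4.03% of 4596 with more exons, and the medians were 0.56 and 0.03. With the trend of each library with GC content and length removed these medians were 0.51 and 0.01, and with total count scaling 0.86 and 0.33. At 8 and over there were 13 single-exon genes, of which 12 are encoded by the mitochondrial genome, and the 1 nuclear gene, PCBP1, was not called (log2 fold change 0.08, edgeR adjusted p = 0.676), so that this class holds no comparison by exon number. Among the single-exon genes that rose were CEBPB, a transcription factor that pairs with ATF4 (19 ± 0.149 to 56.7 ± 3.68 CPM), RHOB, a small GTPase (66.4 ± 5.36 to 161 ± 10.6 CPM), and ZNHIT2 (20.2 ± 4.4 to 78.2 ± 8.15 CPM, SD, n = 3), which were picked out with their values in view. Lower genes had shorter transcripts, at a median of 2569 bases against 3295 in genes not called, and a higher GC content, at 54.3% against 48.6%. No p-value is given for these comparisons across genes, which are not independent.

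**Figure D5:**
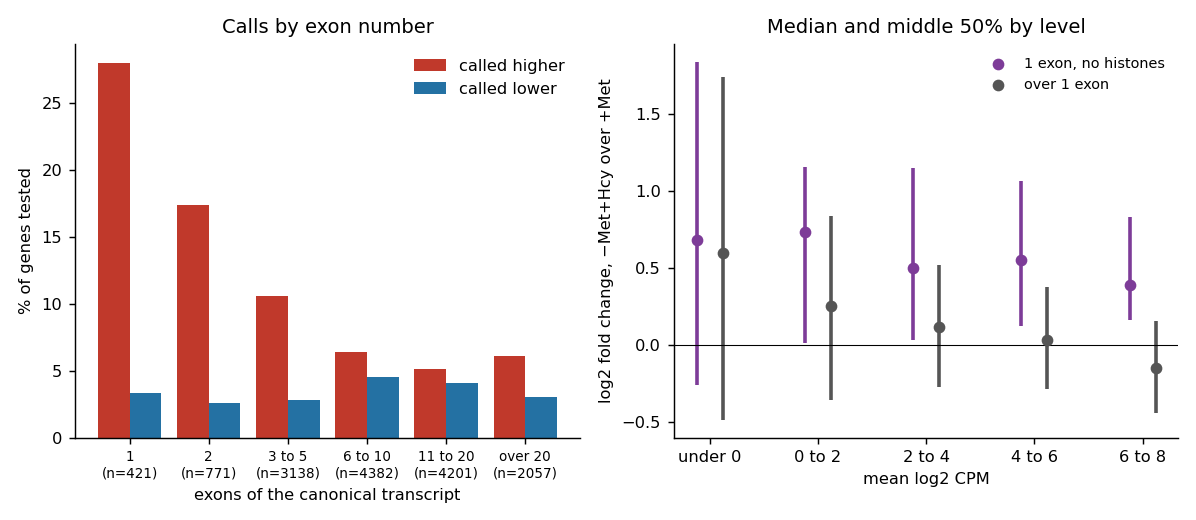
Left, percent of genes called higher (red) and lower (blue) by the number of exons of the canonical transcript, from 28% higher with 1 exon to 6.12% with over 20. Right, median log2 fold change and middle 50% of single-exon genes without histones (purple) and of genes with more exons (grey) by mean log2 CPM up to 8, with medians of 0.56 and 0.03 at 4 to 6.

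The identity of the line was checked on markers. Of 8 genes chosen for embryonic kidney lines VIM, vimentin, was at 831, 769 and 722 CPM in +Met and 314, 309 and 289 CPM in −Met+Hcy and fell (log2 fold change -1.35), and the neurofilament NEFL, which HEK293 lines are known to express, was at 57.3, 54 and 51.5 CPM in +Met and 80.1, 81.7 and 75.2 CPM in −Met+Hcy. PAX2, LHX1 and CD24, defining genes of kidney development, had means under 1 CPM in both media. Of 12 markers of the basal breast line that the laboratory also uses, 10 were not tested for want of counts. CDH3 was called higher with means under 2 CPM, a call that was lost without +Met replicate 1, +Met replicate 3, −Met+Hcy replicate 1 or −Met+Hcy replicate 2, and the summed share of these markers ranged over 0.000376 to 0.000582% in the +Met libraries and 0.000362 to 0.000757% in the others. Of 8 fibroblast markers 6 were tested, with 0.00264 to 0.00322% of the counts in the +Met libraries and 0.00446 to 0.00665% in the −Met+Hcy libraries. COL3A1, a fibrillar collagen, was at 16.7, 16.4 and 11.8 CPM in +Met and 32.1, 26.5 and 19.5 CPM in −Met+Hcy, and edgeR and DESeq2 called 0 of the 6 (2 higher at an unadjusted p under 0.05). Of 10 blood cell markers 5 were tested, at a summed share of at most 0.000332%, and CD3E, which no +Met library held, was called higher, a call that was lost with any library left out. The tested blood markers had means under 3 CPM in both media, while the collagen COL1A1 was at 12.4, 8.74 and 9.71 CPM in +Met and 16.1, 10.4 and 8.96 CPM in −Met+Hcy. The part of other cells in the response was not tested.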

How the data were processed

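The authors sequenced total RNA of HEK293T cells kept for 12 h in either medium. Per the labels and the study's methods, the authors quantified reads with kallisto 0.48.0 against GRCh38, added up estimated counts over transcripts to Ensembl genes and deposited them as unscaled integers. Library preparation, read length and strand are not given in the sources used here.

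The 6 HEK293T libraries, of 12 in the series, were fitted alone in R 4.3.3 with edgeR 4.0.16, by TMM scaling and a quasi-likelihood test with a mean for each medium and 4 residual degrees of freedom. Genes with a summed count under 10 were excluded, 7225 in all. The Benjamini-Hochberg adjustment ran over the 16275 genes tested, and calls needed both a log2 fold change beyond 1 in size and an adjusted p-value below 0.05. Log2 CPM used a prior count of 2, and fold changes are those of the model. Fold changes against a medium with 0 counts in every library are lower bounds against 3 counts per library, which cover counting error only, since PCR copies are not independent molecules. Entries without a symbol (868 of those listed, 0.346 to 0.402% of counts) were kept by their identifier. A gene with several entries is represented in the lists and in the text by the entry with the most counts, and 1022 tested entries have the counts of another entry of the same symbol.

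The libraries, the 48 lists, the tests and the genes named were chosen with earlier results of these data known. Named are the 12 largest log2 fold changes in each direction among calls that reached a mean of 5 CPM in either medium with non-overlapping libraries, the 6 called genes with the largest gain and the 6 with the largest loss in CPM, up to 4 called members of each list, 1 member of a list that was not called, and genes of SAM synthesis, methionine salvage and PP2A methylation. Some genes of the rule are not given values, and certain items are not reported here. Each of the 6 libraries was left out in turn, and DESeq2 1.42.0, RLE scaling, other filters, the replicate number as a block, all 12 libraries in one model, 1 entry per set of identical copies and the removal of trends with GC content and transcript length (loess, span 0.3, fitted on genes over a mean log2 CPM of 2) were tried. Total count scaling was added after the TMM factors were seen. The fit was tested on simulated data. Lengths, GC content and exons come from the canonical transcripts of GENCODE for GRCh38, and promoter sequences from RefSeq GRCh38.p14.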

Additional observations from a re-analysis of the deposited data

How the results depend on the processing

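The counts of called genes depended most on the scaling, the threshold and the libraries in the model. They were 1281 higher and 618 lower as reported, 2270 and 264 with total count scaling, 521 and 273 in one model with all 12 libraries, and 3035 and 2527 at the adjusted p-value alone. Fits that lacked 1 library each called 1011 to 1234 higher and 503 to 689 lower genes. DESeq2, RLE scaling, filtering by filterByExpr or not at all, 1 entry per identical copies and the removal of trends with GC content and length gave 1139 to 1264 higher and 527 to 646 lower genes, within 1.5 times of the counts reported. Of the 1899 calls, 793 were kept in the model of 12 libraries, 1545 with total count scaling and 1737 with DESeq2, and none of these alternatives changed the sign of a call. Without −Met+Hcy replicate 1, 1 call changed sign.

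Counts within lists moved with the same choices. In the model of all 12 libraries 1 respiratory chain gene, 3 mitochondrial ribosomal proteins, 1 of G2 and mitosis, 1 cytosolic synthetase and 0 of S phase were lower, while 1 gene of S phase, 1 G1 gene, 1 MAGE or cancer-testis gene and 0 interferon genes were higher. With total count scaling 1 gene each of ribosome biogenesis, nucleotide synthesis, fatty acid synthesis, glycolysis and G2 was lower and 0 of S phase, the p53 targets and the targets of YAP and SRF, while 5 MAGE or cancer-testis genes and 2 of mTORC1 sensing were higher.

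The replicate number gave 1168 higher and 615 lower genes when fitted as a block. Whether this number pairs the libraries cannot be told. Same-numbered libraries of the media had correlations of -0.025, -0.077 and 0.49 in their deviations, and +Met replicate 2 correlated best with −Met+Hcy replicate 1 (0.48). The deviations of the 3 libraries of a medium sum to 0, so that these correlations depend on each other.

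At 14260534 counts or more per library, the median SD of log2 CPM between replicates was 0.56 in genes under a mean log2 CPM of 0, where only large changes can be called, and in many such genes both media are near 0. The libraries of a medium may share a batch or culture that the labels do not give, and one time point was measured.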

Other observations

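Gene families named by a shared stem of the symbol were counted by a rule chosen after the data were seen, the letters before the first digit with at least 20 symbols tested, which gave 74 families. Of 465 zinc finger genes named ZNF, 80 were higher (17.2%, against 7.87% of all genes tested) and 6 lower, with a median log2 fold change of 0.43 (0.73 with total count scaling). Their median log2 CPM was 3.56. Of 29 genes named KLHL, adaptors of cullin ubiquitin ligases, 9 were higher and 0 lower (median 0.42), of 21 named PDE 6 were higher and 1 lower (median 0.47), and of 36 named COL 6 were higher and 1 lower (median 0.47). Of 51 genes named TRIM 1 was higher and 3 were lower, although the median was 0.35.

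On the lower side the stems with the lowest medians were RPL (51 genes, 19 lower, median -0.92), RPS (43 genes, 2 lower, median -0.61) and EIF (52 genes, 4 lower, median -0.43). These stems are not functional classes, since they also take in other genes, such as the RPS6K kinases, readthrough genes and paralogs like RPL22L1. The 23 nucleoporins named NUP had 0 called (median -0.27, and 0.0097 with total count scaling).

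In 128 genes every +Met library was at 0 and the −Met+Hcy mean was above 3 counts per library, and in 37 the reverse held. Such genes, FGF21, H1-3, AXL and CD3E among them, passed the filter through 1 medium alone, so that their direction was fixed by it. More genes were detected in each −Met+Hcy library (16861 to 17065) than in any +Met library (16216 to 16436). Totals overlapped between the media, but TMM factors did not (0.882 to 0.940 in +Met, 1.06 to 1.16 in −Met+Hcy). Genes at a mean log2 CPM of 8 and over took 47.3 to 49.5% of +Met and 38.6 to 42.5% of −Met+Hcy counts. More −Met+Hcy reads were thus left for genes at lower levels, and the part of this in the numbers detected or at 0 was not tested. Among the 128 genes, MASP1, a protease of the complement system picked out here with its values in view, had 21, 24 and 35 counts in the −Met+Hcy libraries, at least 7.4-fold higher.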
